A study of Mus musculus with 17 samples.

Results

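RNA bound to ribosomes at the endoplasmic reticulum (ER) was compared with RNA of the whole cell in mouse embryonic stem cells that had received a scramble siRNA. The members are 5 of the series' 17 libraries, chosen by their labels: ER ribosome-bound RNA of biological replicates 2 and 3, and whole-cell RNA of biological replicates 1, 2 and 3. The other 12 libraries belong to cells given an siRNA against Nmd3 or Gnl3 and enter no value below except where stated. The setting named 15 libraries in the fit adds those of the 12 that the submitters did not leave out as outliers.

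All 5 libraries came from one line of E14Tg2a.4 embryonic stem cells, Rpl31-FTA, in which Rpl31, a protein of the large ribosomal subunit, bears a FLAG-TEV-AviTag, and which was grown in serum with leukemia inhibitory factor. For the ER ribosome-bound libraries, ALIBi, a system that biotinylates tagged ribosomes close to a chosen organelle, was directed to the ER, and the marked ribosomes were purified from a detergent lysate that held cycloheximide, a drug that stalls ribosomes on their mRNA. The whole-cell libraries were made from an aliquot of the lysates set aside before purification, so the controls carry the same tag, ALIBi constructs and scramble siRNA. Polyadenylated RNA was sequenced in both. The whole-cell libraries hold RNA of all ribosomes and also RNA that is on none, and no library of ribosomes from the cytosol is part of the comparison. A higher ratio at the ER and a higher share of an mRNA's copies on ribosomes therefore cannot be told apart for a single gene.

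Most proteins destined for secretion, for the plasma membrane or for the lumen of secretory organelles are made on ribosomes docked at the ER. As the nascent chain emerges, the signal recognition particle (SRP) binds its first hydrophobic stretch, a cleaved signal peptide or a first membrane helix, and brings the ribosome to the Sec61 channel. Proteins whose only membrane helix lies at the extreme C-terminus leave the ribosome before that helix is exposed and are inserted afterwards. Many of those of the ER use the GET pathway. Soluble proteins of the cytosol and nucleus and most mitochondrial proteins are made on ribosomes that need no such docking.

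Gene counts totalled 18.5 and 18.9 M on ER ribosomes, against 15.9, 17.8 and 22.8 M in whole-cell RNA. Log2 CPM correlated across genes at 0.9926 between the ER ribosome-bound libraries, at 0.9923 to 0.9933 among the whole-cell libraries and at 0.9611 to 0.9675 between the fractions. By these correlations no library stood apart within its fraction. Over 9083 genes at 10 CPM or more, whole-cell replicates 1 and 3 were closest by the SD of the log2 ratio (0.105). That SD was 0.127 between replicates 1 and 2 and 0.13 between replicates 2 and 3, so replicate 2 lay somewhat further off. Pluripotency markers, 10 in number, summed to 7995 and 7727 CPM on ER ribosomes, against 6235, 6423 and 6385 CPM in whole-cell RNA. Primitive endoderm markers summed to 8.65 and 8.47 CPM on ER ribosomes, against 12.4, 10.3 and 12 CPM in whole-cell RNA. Sums were larger for trophoblast markers, 137.4 and 134.6 against 131.8, 136.2 and 148.1 CPM, with Tfap2c highest. For neural markers they were 122.8 and 116.1 against 112.4, 120.1 and 113.7 CPM, with Tubb3 highest. Mesoderm markers summed to 3.1 and 3.27 against 3.3, 3.24 and 3.77 CPM. Those of 2-cell-like cells summed to 22.6 and 23.1 against 16.2, 14.05 and 14.8 CPM. Feeder fibroblast markers summed to 35.4 and 36.9 CPM on ER ribosomes, against 20.9, 20.6 and 20.8 CPM in whole-cell RNA. Among them Lum was at 0 in all libraries, Dcn and Postn had a single count each over all libraries, and the sum was mostly that of Thy1, itself a surface protein with a lipid anchor.

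Levels are CPM, counts scaled to a common library total and by TMM factors, for ER replicates 2 and 3 and then whole-cell replicates 1, 2 and 3. Fold changes are log2 of ER ribosome-bound over whole-cell RNA with their standard error (SE). Called genes are those whose p from edgeR's quasi-likelihood test, adjusted over all 17292 genes, lay below 0.05. By that rule 9859 genes were called, 57.0% of those tested. On ER ribosomes 4818 genes were higher (27.9%) and 5041 were lower (29.2%), and with at least a 2-fold difference 647 were higher (3.74%) and 1317 lower (7.62%). The median over all genes was 0.01. In 69.8% of genes the ranges of the fractions did not overlap, so a gap between fractions is common in these data. The log2 ratio between the ER ribosome-bound libraries had an SD of 0.111 over 9083 genes at 10 CPM or more, and the log2 fold change between fractions had an SD of 0.588 over the same genes.

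Among protein-coding genes at a mean of 20 CPM or more in the higher fraction, the mRNAs with the highest ratio encoded small secreted and membrane proteins. Apoe, a secreted lipid carrier, was at 1439 and 1412 CPM on ER ribosomes, against 489.6, 501.4 and 513.8 CPM in whole-cell RNA (1.51, SE 0.04, adjusted p = 3.23e-33). Cyba, the membrane subunit of an NADPH oxidase, was at 56.6 and 57.2 CPM on ER ribosomes, against 19.9, 20.1 and 20.8 CPM in whole-cell RNA (1.49, SE 0.07). Both ER values lay far above all whole-cell values for either gene. Egfl7, a secreted vascular factor (1.49), the heparin-binding growth factor Mdk (1.45) and the precursor of thyrotropin-releasing hormone, Trh (1.44), followed. Dad1, a subunit of the enzyme that attaches N-linked glycans, was at 158.6 and 162.3 CPM on ER ribosomes, against 57.2, 60.6 and 59.9 CPM in whole-cell RNA (1.44, SE 0.05). The rest of the 12 highest were Wfdc2, the membrane protease inhibitor Spint2, Npdc1, the vitamin K recycling enzyme Vkorc1, the heparan sulfate proteoglycan Sdc4 and the calcitonin precursor Calca, at 1.41 to 1.43.

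By the same rule, the 12 lowest nuclear-encoded mRNAs encoded large proteins, most of them of the nucleus, the cytoskeleton or the cytosol. Bod1l, a protein that protects replication forks, was at 6.78 and 6.8 CPM on ER ribosomes, against 73.8, 57.1 and 64.4 CPM in whole-cell RNA (-3.26, SE 0.11). Map1b, a microtubule-associated protein, was at 19.3 and 19.3 CPM on ER ribosomes, against 176.6, 147.3 and 187.5 CPM in whole-cell RNA (-3.14, SE 0.1). Mdn1, the giant ATPase of large-subunit assembly, was at 39.2 and 43 CPM on ER ribosomes, against 345.2, 283.9 and 351.5 CPM in whole-cell RNA (-2.99, SE 0.12). Every whole-cell value of these genes was several times every ER value. Knl1 (-2.96), Nipbl (-2.77), Rif1 (-2.73), Mars (-2.69), Gcc2 (-2.64), Vps13c (-2.64), Cenpf (-2.58), Birc6 (-2.51) and Mycbp2 (-2.51) completed the set. All but Mars, which encodes the cytosolic methionyl-tRNA synthetase of 902 residues, encode proteins of 1680 residues or more.

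**Figure D1:**
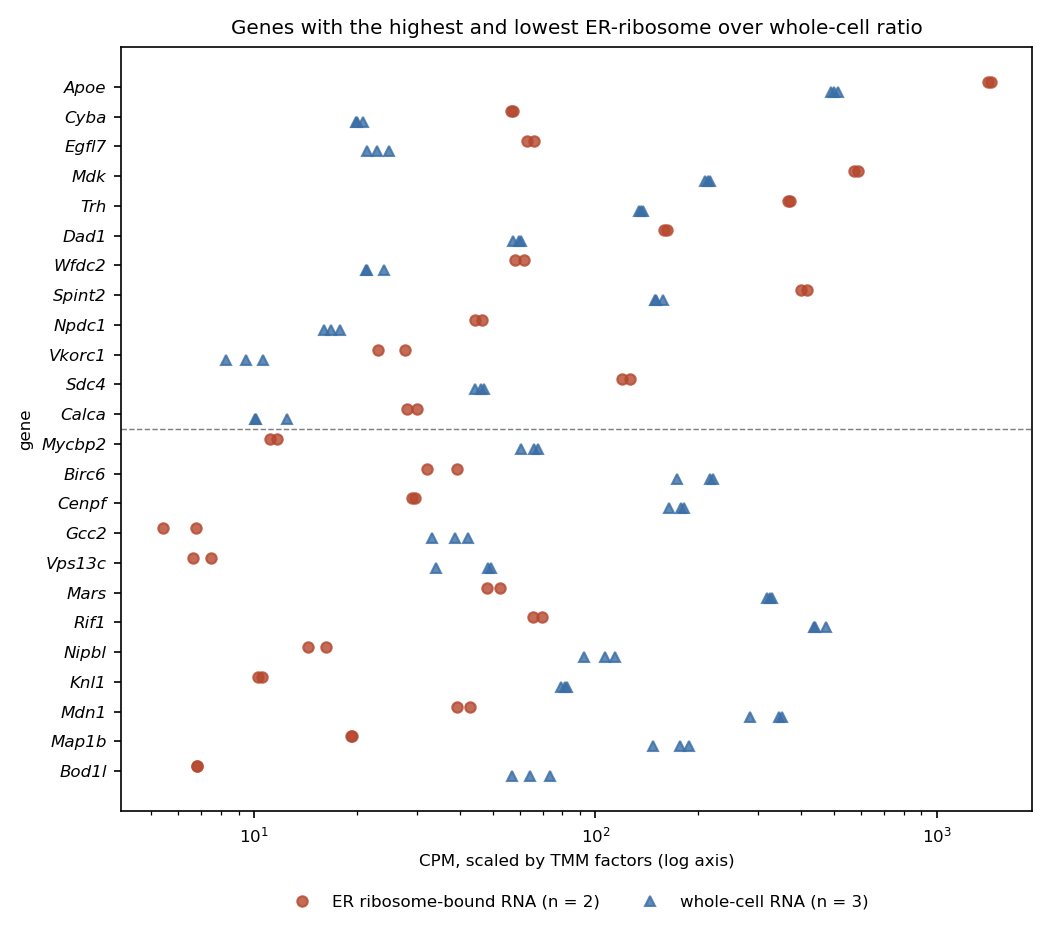
Level of the 12 protein-coding genes with the highest ratio (above the dashed line) and the 12 with the lowest (below it), as CPM scaled by TMM factors on a log axis. Each circle is an ER ribosome-bound library and each triangle a whole-cell library: Apoe, at the top, lay at 1439 and 1412 CPM on ER ribosomes and at 489.6 to 513.8 CPM in whole-cell RNA, and Bod1l, at the bottom, at 6.78 and 6.8 CPM and at 57.1 to 73.8 CPM.

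The start of the coding sequence is printed because it holds the first hydrophobic stretch that SRP can bind. Shown are codons 1 to 40 of the 4 highest mRNAs, in the sense of the mRNA, from GENCODE M21 transcripts (GRCm38). Capitals mark the 12 codons whose residues were most hydrophobic among the first 35, where their mean on the Kyte-Doolittle hydropathy scale reached 2.
Apoe (chromosome 7): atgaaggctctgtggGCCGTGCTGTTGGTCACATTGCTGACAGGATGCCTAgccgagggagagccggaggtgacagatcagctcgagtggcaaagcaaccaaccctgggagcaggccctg
Cyba (chromosome 8): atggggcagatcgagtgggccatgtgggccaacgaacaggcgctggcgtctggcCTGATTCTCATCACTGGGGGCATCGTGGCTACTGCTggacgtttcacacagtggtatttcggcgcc
Egfl7 (chromosome 2): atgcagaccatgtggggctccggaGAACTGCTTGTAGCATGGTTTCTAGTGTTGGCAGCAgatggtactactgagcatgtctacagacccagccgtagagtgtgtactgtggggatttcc
Mdk (chromosome 2): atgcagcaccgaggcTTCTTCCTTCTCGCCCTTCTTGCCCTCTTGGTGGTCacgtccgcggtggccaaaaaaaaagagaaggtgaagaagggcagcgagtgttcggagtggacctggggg
The marked window had a mean hydropathy of 2.49 in Apoe, 2.22 in Cyba, 2.28 in Egfl7 and 3.37 in Mdk. In Apoe, Egfl7 and Mdk the window falls in the cleaved signal peptide, and in Cyba in a membrane helix. The same codons of the 3 lowest mRNAs held no window at that threshold and so have no capitals.
Bod1l (chromosome 5): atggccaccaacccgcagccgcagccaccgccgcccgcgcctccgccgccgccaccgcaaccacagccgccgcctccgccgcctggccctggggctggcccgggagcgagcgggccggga
Map1b (chromosome 13): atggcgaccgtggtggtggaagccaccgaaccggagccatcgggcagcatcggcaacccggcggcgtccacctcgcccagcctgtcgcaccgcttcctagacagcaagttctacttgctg
Mdn1 (chromosome 4): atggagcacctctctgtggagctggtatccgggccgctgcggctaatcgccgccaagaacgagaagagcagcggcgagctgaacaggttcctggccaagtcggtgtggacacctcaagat
Their best window reached -0.92 in Bod1l, 0.38 in Map1b and 1.27 in Mdn1. Over the 12 genes at each end the best windows overlapped: Dad1, among the highest, reached 1.59 and Nipbl, among the lowest, 1.68.

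The same windows were applied to the proteins of all 13708 tested genes with a complete coding sequence in that annotation, 1 protein a gene. A window of 12 residues among the first 35 with a mean hydropathy of 2 or more was called an N-terminal segment, and a window of 19 residues further on with a mean of 1.6 or more a further segment. These are features of sequence and not locations. Hspa5, a soluble chaperone of the ER lumen, has a further segment by this rule, and the secreted proteins Nodal, Lefty1, Lefty2 and Serpine2 have none. Of 918 mRNAs with an N-terminal segment only, 535 were higher and 74 lower on ER ribosomes, with a median of 0.57. Of 1194 with an N-terminal and a further segment, 685 were higher and 91 lower (median 0.49). Of 2481 with further segments only, 825 were higher and 781 lower (median 0.07). Of 8861 with no segment, 2119 were higher and 3129 lower (median -0.06). Over all 13708, 4255 were higher and 4121 lower, with a median of 0.03.

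Among mRNAs with no N-terminal segment, the median differed with the number of further segments, without a steady order. The 1299 with a single one had a median of -0.11, the 671 with 2 to 4 of 0.24, the 360 with 5 to 8 of 0.3 and the 151 with 9 or more of 0.18. The class with further segments also holds long proteins of the cytosol and nucleus in which a window passed, such as Mdn1, Map1b and Nipbl. Its 3 highest members at 20 CPM or more were Dad1, Tmem160 (1.36) and Bst2, the interferon-induced membrane tether (1.35).

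Protein length moved with the ratio in every class. Across the 13708 genes Spearman's rho between length and log2 fold change was -0.55, and within classes it was -0.4 for N-terminal only, -0.51 for N-terminal and further, -0.67 for further only, -0.48 for C-terminal only and -0.62 for none, as descriptions across genes that share the same libraries. Among proteins under 200 residues with no segment, 798 of 1319 mRNAs were higher on ER ribosomes (median 0.33), and among those of 1600 residues or more 255 of 295 were lower (median -1.08). Within a length class, the N-terminal classes lay above the class with no segment throughout. At 400 to under 800 residues the medians were 0.58 for N-terminal only, 0.47 for N-terminal and further, 0.1 for further only and -0.15 for none. At 1600 residues or more they were -0.29, -0.4, -1.23 and -1.08 in the same order of classes, so even mRNAs of long signal-bearing proteins had a median below 0. For each gene, the median of segment-free mRNAs in its length class was therefore subtracted as well. The median of this length-matched difference was 0.6 for N-terminal only (771 of 918 above 0), 0.63 for N-terminal and further (1057 of 1194), 0.25 for further only (1705 of 2481) and 0.06 for C-terminal only (141 of 254). This subtraction was added after the values had been seen, and the part of length in any single ratio was not tested.

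**Figure D2:**
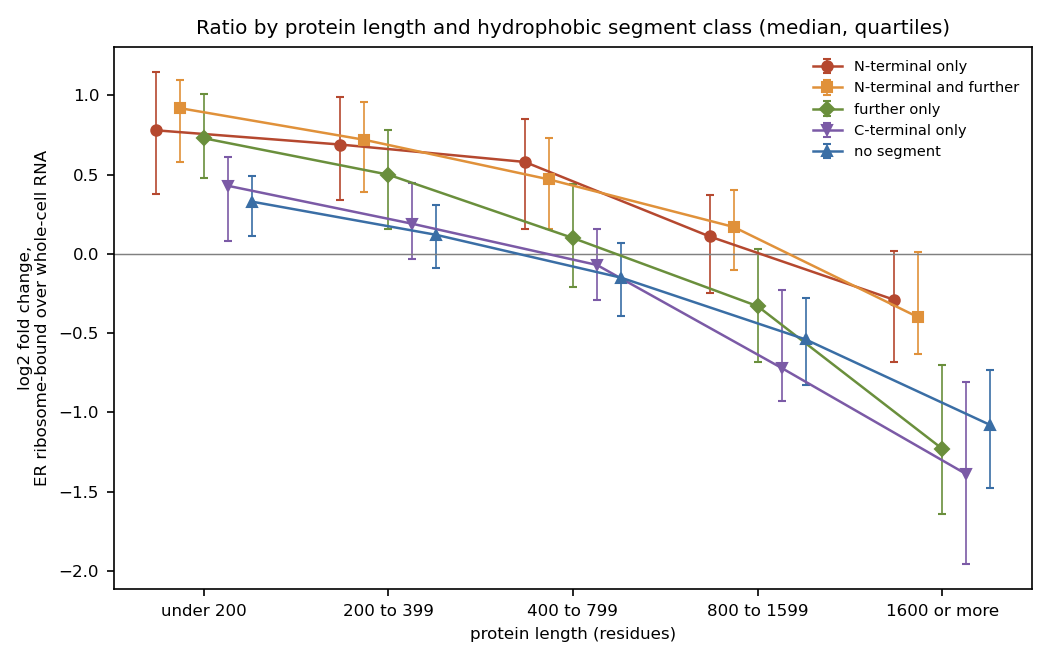
Median log2 fold change (ER ribosome-bound over whole-cell RNA) by protein length, 1 line for each class of hydrophobic segment, with bars from the lower to the upper quartile of genes. All lines descend with length, and both N-terminal classes stay above the line of proteins with no segment, from 0.78 and 0.92 against 0.33 under 200 residues to -0.29 and -0.4 against -1.08 at 1600 residues or more; the C-terminal class holds only 4 genes in the last length class.

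As a share of all protein-coding counts, mRNAs with any segment made up 24.3% and 24.4% on ER ribosomes, against 22.6%, 22.1% and 22.6% in whole-cell RNA. The fractions did not overlap, and the difference was 1.85 percentage points, at the smallest p that 2 against 3 libraries allow (two-sided exact permutation test, p = 0.2). The N-terminal only class supplied 4.53% and 4.49% of counts on ER ribosomes, against 2.98%, 2.99% and 3.01% in whole-cell RNA. The N-terminal and further class supplied 5.2% and 5.22% on ER ribosomes, against 3.66%, 3.58% and 3.71% in whole-cell RNA. Further segments alone supplied less on ER ribosomes, 13.4% and 13.5% against 14.9%, 14.5% and 14.9% in whole-cell RNA. Segment-free mRNAs made up 75.7% and 75.6% of protein-coding counts on ER ribosomes, against 77.4%, 77.9% and 77.4% in whole-cell RNA. With stricter windows (means of 2.2 and 1.8) the difference for any segment was 3.13 points. The translation elongation factor Eef1a1, which had the most counts in both fractions, was at 12080 and 11980 CPM on ER ribosomes, against 11950, 12490 and 11740 CPM in whole-cell RNA.

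The machinery that receives and processes nascent chains at the ER was itself among the enriched mRNAs. List counts here and below are of members that passed the filter on low counts: 39 of 45 for extracellular matrix, 54 of 60 for secreted factors, 35 of 38 for GPI-anchored proteins, 11 of 13 for mitochondrial mRNAs and 19 of 21 for noncoding RNAs, as counts of members found in the deposited tables. In any other list at most 1 of the members found there did not pass. Of 13 Sec61 channel and translocon-associated (TRAP) genes 12 were higher and 0 lower, with a median of 0.66. Ssr2, a TRAP subunit, was at 632 and 603.6 CPM on ER ribosomes, against 272.3, 298.8 and 281.8 CPM in whole-cell RNA (1.12, SE 0.04, adjusted p = 1.46e-26). Sec61a1, which forms the channel, was at 383.4 and 385.5 CPM on ER ribosomes, against 229.2, 218.1 and 226.4 CPM in whole-cell RNA (0.78, SE 0.04). Neither gene's libraries overlapped between fractions. The small channel subunits Sec61b (0.56) and Sec61g (0.48), each with a single C-terminal helix, were higher too, and Sec62, a channel partner, was not called (-0.1, SE 0.06).

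All 6 signal peptidase and signal peptide peptidase genes were higher (median 1.06), led by Spcs1 (1.22) and the catalytic subunit Sec11a (1.18). Of 11 oligosaccharyltransferase genes 9 were higher and 1 lower (median 0.89). The small subunits Dad1 (1.44) and Krtcap2 (1.3) and the subunit Ddost (1.18) led, and the catalytic subunits were lowest. Stt3b was at 0.18 and Stt3a at -0.13 (SE 0.05, adjusted p = 0.0116). The call of Stt3a was lost with library totals, with 15 libraries in the fit or without either ER library. Of 18 genes of the ER insertases and the multipass translocon 16 were higher and 0 lower (median 0.73). Tmem147 (1.17), Emc10 (1.16) and Wdr83os (1.16) led them, and the GET receptor genes Wrb (0.69) and Caml (0.72) were also higher. Emc2, a subunit of the ER membrane complex that faces the cytosol, was at 57.8 and 53.9 CPM on ER ribosomes, against 59.1, 57.3 and 59.9 CPM in whole-cell RNA, and was not called (-0.07, SE 0.06).

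Folding enzymes of the ER lumen were nearly all enriched. Of 40 genes 37 were higher and 0 lower (median 0.89), and all 40 lay above the segment-free median of their length class. Cnpy2, a lumenal saposin-like chaperone, was at 200 and 183.3 CPM on ER ribosomes, against 74, 78.4 and 73.4 CPM in whole-cell RNA (1.35, SE 0.05). Sdf2l1 (1.32), the prolyl isomerase Fkbp2 (1.3) and Creld2 (1.27) were close. The abundant chaperones had smaller ratios. Hspa5, the lumenal Hsp70, was at 576.1 and 580.7 CPM on ER ribosomes, against 382.9, 405.6 and 369.7 CPM in whole-cell RNA (0.58, SE 0.04), and Hsp90b1 had 0.55. The glycoprotein glucosyltransferase Uggt1 (0.06, SE 0.05) and the oxidase Ero1l (0.07, SE 0.07) were not called.

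The pathway continued into transport and modification. Of 23 p24 family and lectin cargo receptors 22 were higher and 1 lower (median 0.95), from Tmed1 (1.25) and Tmed9 (1.21) to Tmed5, which was lower (-0.22, SE 0.05). Of 46 Golgi glycosyltransferases and sugar transporters 33 were higher and 3 lower (median 0.43), with B3gat3 and Slc35b2 highest (0.93 each). Of the lower ones, Man2a1 (-0.51) encodes a long Golgi mannosidase, and Galnt2 (-0.89, SE 0.31) rested on about 1 to 3 CPM and lost its call in DESeq2, with the replicate number as a block and without ER replicate 2 or whole-cell replicate 1. Of 27 enzymes of glycosylphosphatidylinositol (GPI) anchor synthesis 18 were higher and 4 lower (median 0.52), from Pgap3 (1.24) and Pigx (1.11) to Pgap1 (-0.77), the long inositol deacylase.

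Lysosomal proteins enter the ER before they are sorted, and nearly all of their mRNAs were enriched: 44 of 50 were higher and 1 lower (median 0.86, length-matched 0.94). The cathepsin Ctsb was at 208 and 210.9 CPM on ER ribosomes, against 86.3, 89.9 and 90 CPM in whole-cell RNA (1.24, SE 0.05). The cholesterol carrier Npc2 was at 189 and 191.4 CPM on ER ribosomes, against 78.7, 81.6 and 79.4 CPM in whole-cell RNA (1.25, SE 0.05). In both genes the ER values lay well above all whole-cell values. The one lower member, the sulfatase Ids (-0.5, SE 0.15), lost its call without whole-cell replicate 3. The cathepsin Ctsh (1.33) had the highest ratio at under 2 CPM, with a call lost in DESeq2 and without ER replicate 3. Cd68 (1.31), a membrane glycoprotein, and Ctsz (1.29) came next, and the cholesterol exporter Npc1, a long polytopic protein, was not called (0.16, SE 0.07).

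Secreted signalling proteins of the stem cells were mostly higher: of 54 growth factors, hormones and their binding proteins 44 were higher and 1 lower (median 0.77). Igfbp2, which binds insulin-like growth factors, was at 639.4 and 653.4 CPM on ER ribosomes, against 238.3, 251.6 and 264.3 CPM in whole-cell RNA (1.36, SE 0.04). Nodal, the TGF-beta family ligand of the early embryo, was at 137.8 and 135.8 CPM on ER ribosomes, against 65.8, 67.5 and 65.9 CPM in whole-cell RNA (1.04, SE 0.05), and its antagonists Lefty2 (1.02) and Lefty1 (0.84) were similar. Fgf4, the autocrine factor of pluripotent cells, was at 282.7 and 275.6 CPM on ER ribosomes, against 188.6, 178.2 and 186.2 CPM in whole-cell RNA (0.6, SE 0.04). The ER values were above every whole-cell value in each of these genes. Igf2, the one lower member, was under 1.2 CPM in all libraries (-1.26, SE 0.48), and its call was lost in DESeq2 and without ER replicate 3 or whole-cell replicate 3.

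Tetraspanins, claudins, connexins and related small proteins with several membrane helices were 33 higher and 0 lower of 36 (median 0.95). Among them Cd63 was at 249.9 and 249.5 CPM on ER ribosomes, against 101.2, 114.4 and 110.6 CPM in whole-cell RNA (1.2, SE 0.05), and the claudin Cldn6 had 1.18. GPI-anchored proteins were 27 higher and 0 lower of 35 (median 0.88). The Nodal co-receptor Tdgf1 was at 2347 and 2270 CPM on ER ribosomes, against 1177, 1220 and 1177 CPM in whole-cell RNA (0.95, SE 0.03). Ly6e (1.4) and the prion protein Prnp (1.1) were also higher, as was Thy1 (1.03), which carries most of the feeder fibroblast marker sum above. The part of such cells in these values was not tested.

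Single-pass receptors and adhesion proteins were split, with 35 of 73 higher and 15 lower (median 0.19). The highest were Spint2 (1.43), Sdc4, Cd320 (1.37) and the adhesion and transporter-chaperone protein Bsg, at 656.8 and 668.3 CPM on ER ribosomes against 261, 274.6 and 250.3 CPM in whole-cell RNA (1.34, SE 0.04). The epithelial adhesion proteins Epcam (1.01) and Cdh1 (0.56) were higher. The endocytic receptor Lrp2, of 4660 residues, was at 19.5 and 24.4 CPM on ER ribosomes, against 69.1, 60.6 and 66.6 CPM in whole-cell RNA (-1.57, SE 0.08), and Lrp1 (-0.99), the BMP receptor Bmpr2 (-1.5) and Notch2 (-0.65) were lower too. The median length of the list was 986 residues, and its length-matched median was 0.73, with 67 of 73 members above 0. Solute carriers and ion pumps were 38 higher and 6 lower of 55 (median 0.28, length-matched 0.45). With library totals, or with TMM factors taken without mitochondrial genes, 3 were lower. That list also held Slc9a3r1, a scaffold protein and not a carrier. The beta subunits of the sodium pump were higher (Atp1b3 0.93, Atp1b1 0.84).

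The extracellular matrix list went both ways, with 17 of 39 higher and 13 lower (median 0.05). Among the higher ones were Crtap, part of the prolyl 3-hydroxylase complex, at 141.1 and 133 CPM on ER ribosomes against 54.1, 54.9 and 55.5 CPM in whole-cell RNA (1.32, SE 0.05), and fibulin Fbln1 (0.95). The lowest were the proteoglycan Vcan (-1.41), the laminin chain Lama1 (-1.18), the TGF-beta binding protein Ltbp1 (-1.13) and the laminin chain Lama5 (-0.92). Collagens lay on both sides: the basement membrane collagen Col4a1 was lower (-0.62), and the fibrillar collagen Col1a1 was higher (0.54, SE 0.23), a call lost in DESeq2, with 15 libraries in the fit and without ER replicate 2 or whole-cell replicate 2. The list's median length was 1253 residues and its length-matched median 0.71, with 36 of 39 members above 0.

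**Figure D3:**
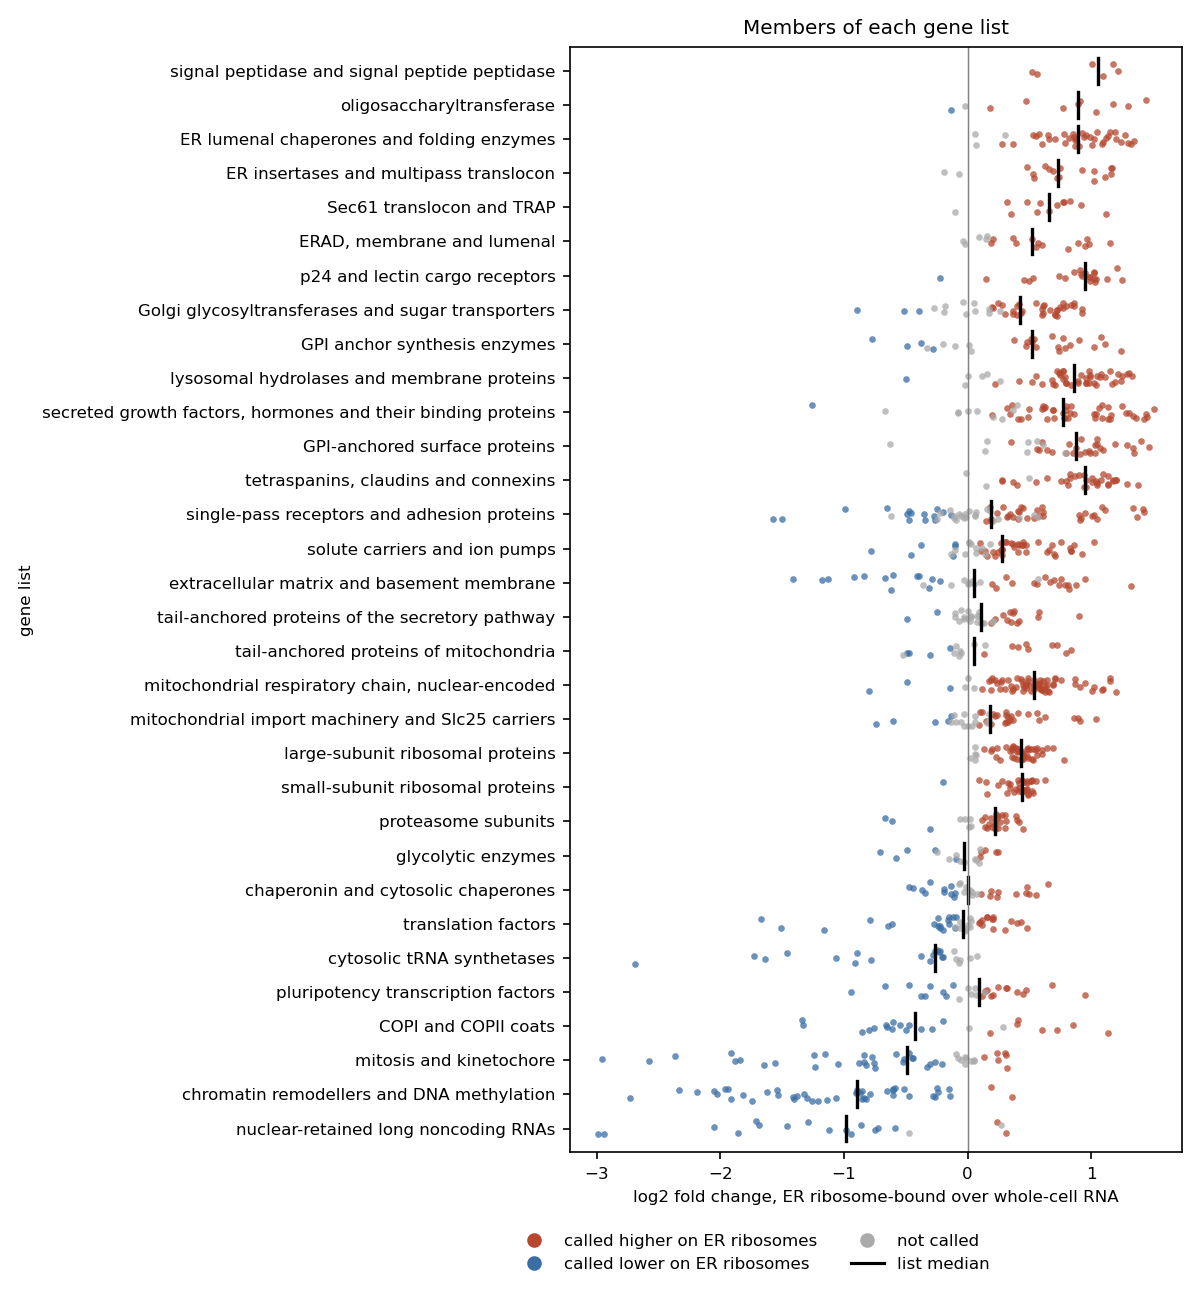
Log2 fold change (ER ribosome-bound over whole-cell RNA) of each tested member of 32 gene lists; each point is a gene, coloured by its call, and the black bar is the list's median. Lists of the ER lumen, lysosome, cargo receptors and small membrane proteins have medians of 0.86 to 1.06, ribosomal proteins 0.43 and 0.44, and chromatin proteins and long noncoding RNAs -0.9 and -0.98.

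Machines assembled from membrane and soluble parts gave a comparison within a function. Of the V-ATPase, the lysosomal proton pump, all 9 membrane subunits and accessory proteins were higher (median 0.88), against 5 higher and 2 lower of 9 cytosolic subunits (median 0.22), at median lengths of 350 and 351 residues. Atp6v0c, the proteolipid of the membrane ring, was at 108.5 and 108.2 CPM on ER ribosomes, against 42.1, 44.2 and 44.9 CPM in whole-cell RNA (1.31, SE 0.06). The catalytic subunit Atp6v1a, on the cytosolic face, was at 115.4 and 119.2 CPM on ER ribosomes, against 184.7, 184.1 and 191.3 CPM in whole-cell RNA (-0.67, SE 0.05). These subunits lay on opposite sides with no overlap of libraries in either. They are the highest of the membrane list and the lowest of the cytosolic list, where 5 of 9 were higher. The pair was not matched for length.

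Other pairs followed the same order of medians. ER-associated degradation (ERAD) factors of the membrane and lumen were 14 higher and 0 lower of 19 (median 0.52), led by Selenos (1.15), while cytosolic ERAD factors were 1 higher and 6 lower of 14 (median -0.11), with the ATPase Vcp not called (-0.08, SE 0.04) and Ubxn7 lowest (-0.84). With library totals 4 cytosolic ERAD factors were higher. The length-matched median of the cytosolic factors was -0.01, with 7 of 14 above 0, against 0.52 for those of the membrane and lumen. Membrane enzymes of cholesterol synthesis were 11 higher and 1 lower of 14 (median 0.52). Ebp, the sterol isomerase, was highest (1.09), and Lss, a monotopic cyclase with no segment by the rule above, was lower (-0.46). Soluble enzymes of the same pathway were 3 higher and 3 lower of 8, and their median of -0.06 changed sign without ER replicate 3 (0.02). Hmgcs1 (-0.63) and Idi1 (-0.55) were lower and the kinase Mvk higher (0.59).

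Peroxisomal membrane proteins were 11 higher and 2 lower of 16 (median 0.54), with Pex16, which sorts membrane proteins to peroxisomes, highest (0.98) and the tail-anchored tether Acbd5 lowest (-0.75). Peroxisomal matrix enzymes and soluble import factors were 3 higher and 7 lower of 21 (median -0.11, length-matched -0.01 with 10 of 21 above 0). With the replicate number as a block or in DESeq2 only 1 of these was higher, and with library totals 5 were. Acaa1a, a thiolase (0.21, SE 0.07), was among the calls lost with the block. Nuclear envelope membrane proteins were 11 higher and 6 lower of 21 (median 0.16). Nrm (1.11) and the lumenal ATPase Tor1a (1.06) were higher, and the giant nesprins Syne1 (-1.85) and Syne2 (-1.5) lower. That list also held Man1a2, a Golgi mannosidase entered in error. Soluble nucleoporins were 0 higher and 20 lower of 26 (median -0.54), down to Ranbp2 (-1.98). For these pairs the lists' lengths differ, with medians of 626 residues for the envelope list and 780.5 for the nucleoporins, and length-matched medians of 0.37 and -0.25.

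Transcription factors held at the ER membrane until they are cleaved, together with their regulators, were 9 higher and 2 lower of 15 (median 0.24). Creb3l1 was at 36.1 and 35.2 CPM on ER ribosomes, against 19.7, 18.5 and 17.1 CPM in whole-cell RNA (0.96, SE 0.09), and the sterol regulators Insig1 (0.6) and Scap (0.48) were higher. Atf6, the cleaved sensor of unfolded proteins, was at 31.8 and 30.3 CPM on ER ribosomes, against 48, 47 and 43.9 CPM in whole-cell RNA (-0.57, SE 0.07). Ern1, the nuclease sensor, was lower (-0.32, SE 0.13), but the call was lost in DESeq2, with library totals, with the replicate number as a block, with 15 libraries in the fit and without ER replicate 3 or whole-cell replicates 1 or 3. Soluble stress factors were 6 higher and 4 lower of 15 (median 0.12), with 2 lower in DESeq2. The highest of them was Xbp1, whose mRNA is the target of that nuclease and whose unspliced form encodes a hydrophobic stretch. It was at 71.1 and 74.5 CPM on ER ribosomes, against 47.5, 51.6 and 41.7 CPM in whole-cell RNA (0.64, SE 0.07).

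**Figure D4:**
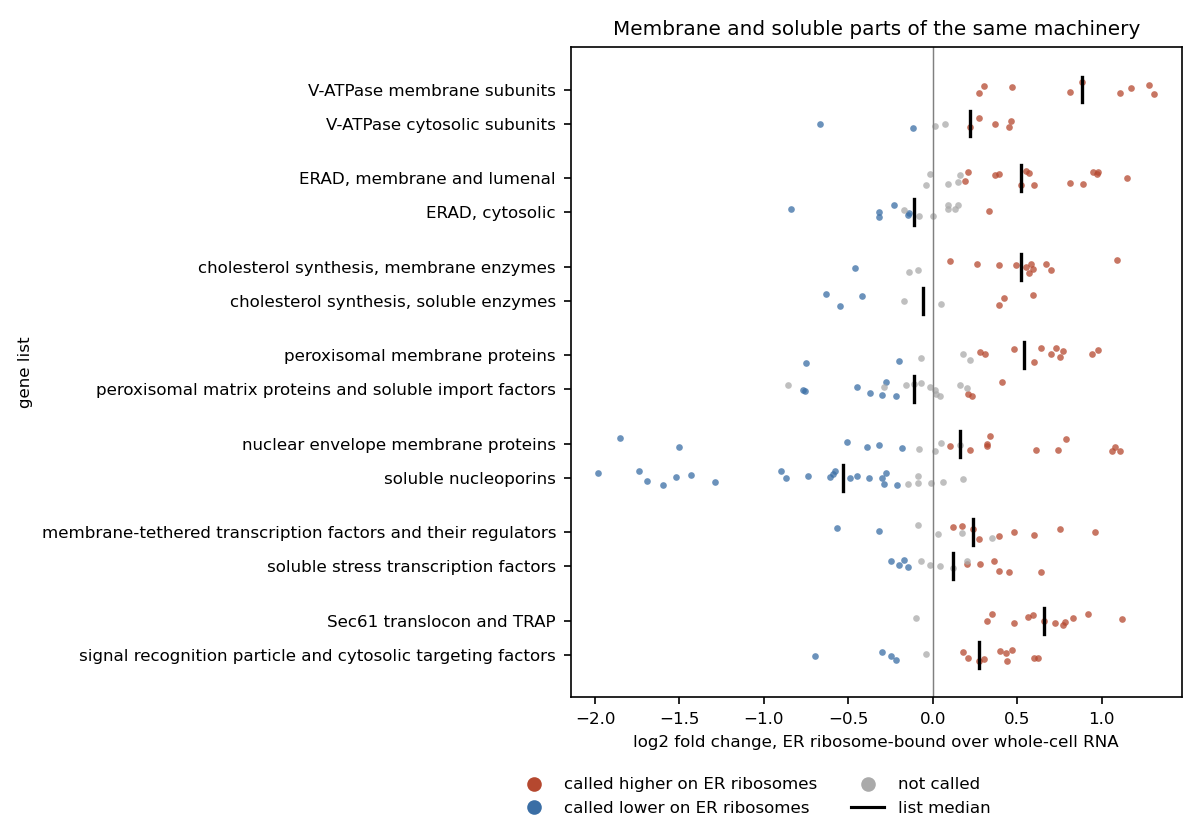
Log2 fold change (ER ribosome-bound over whole-cell RNA) of each member of 7 pairs of gene lists, the membrane or lumenal list above its soluble counterpart; points are genes coloured by call and black bars are medians. The membrane list has the higher median in each pair, for example 0.88 against 0.22 for the V-ATPase and 0.24 against 0.12 for transcription factors.

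By the windows above, mRNAs with only a C-terminal segment differed from those with an N-terminal segment. Of 254 mRNAs whose only segment ended in the last 35 residues, 91 were higher and 46 lower (median 0.12). That class is not made of tail-anchored proteins alone. It also held 7 GPI-anchored surface proteins (median 0.98, 5 higher) and 4 cargo receptors (median 1.0, 4 higher). Tail-anchored proteins of the secretory pathway were 13 higher and 2 lower of 35 (median 0.11, length-matched -0.03), and those of mitochondria 9 higher and 4 lower of 21 (median 0.05, length-matched 0.04). By sequence 32 of the 35 fell in the C-terminal class, of which 11 were higher. Jagn1 (0.9) and Retreg1 (0.57), in the list but with further segments before the C-terminus, are among the remaining 3. Of the 21 mitochondrial ones 13 fell in the C-terminal class, with 2 higher and 3 lower (median -0.07). Another 6 had no segment by the windows, at a median length of 133 residues, with 5 higher and 1 lower (median 0.43). Codons of the last 40 residues are printed for the 3 members of the secretory tail-anchored list in the C-terminal class with the highest ratio, to set beside the N-terminal windows above, with the most hydrophobic 19 codons in capitals.
Vamp8 (chromosome 6, codons 62 to 101): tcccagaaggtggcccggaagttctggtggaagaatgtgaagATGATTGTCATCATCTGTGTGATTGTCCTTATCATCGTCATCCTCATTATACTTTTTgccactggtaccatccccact
Hmox1 (chromosome 8, codons 250 to 289): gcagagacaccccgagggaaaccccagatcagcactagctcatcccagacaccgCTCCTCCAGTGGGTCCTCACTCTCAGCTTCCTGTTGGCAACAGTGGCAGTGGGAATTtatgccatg
Use1 (chromosome 8, codons 231 to 270): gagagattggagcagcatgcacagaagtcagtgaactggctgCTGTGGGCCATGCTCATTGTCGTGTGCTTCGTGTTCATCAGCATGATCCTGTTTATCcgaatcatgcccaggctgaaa
The SNARE Vamp8 was at 8.49 and 6.44 CPM on ER ribosomes, against 5.27, 4.95 and 4.79 CPM in whole-cell RNA (0.58, SE 0.16), a call lost without ER replicate 2. The heme oxygenase Hmox1 (0.42) and the SNARE Use1 (0.4) were also higher. Vapa, the abundant tether of ER contact sites, was at 234.3 and 222.5 CPM on ER ribosomes, against 215.9, 213.9 and 216.4 CPM in whole-cell RNA, and was not called (0.08, SE 0.04). No member of either tail-anchored list reached a 2-fold difference. In the C-terminal class 14 did, among them Tmed9, a cargo receptor with a signal peptide that the windows missed.

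The targeting factors themselves, soluble proteins of the cytosol, were 10 higher and 4 lower of 15 (median 0.27, length-matched 0.11). The short SRP proteins Srp14 (0.62) and Srp9 (0.44) were higher and the longer Srp68 (-0.22), Srp72 (-0.25) and Srp54a (-0.7) lower; Srp68 lost its call without ER replicate 3. Among coat proteins that bud vesicles from the ER and Golgi, all soluble, 7 of 24 were higher and 15 lower (median -0.42). The small GTPases that start coat assembly were higher: Sar1b was at 92.2 and 92.9 CPM on ER ribosomes, against 41.5, 44.6 and 40.2 CPM in whole-cell RNA (1.14, SE 0.06), followed by Sar1a (0.85), Arf1 (0.72) and Arf4 (0.6). Sec16a (-1.33), the exchange factor Gbf1 (-1.34), Sec31a (-0.85) and Copa (-0.8) were lower. The GTPases have 180 to 198 residues and no segment, and mRNAs of such proteins under 200 residues had a median of 0.33.

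Some mRNAs of ER membrane proteins with an N-terminal segment lay on the other side. Ktn1, kinectin, was at 42.8 and 47.2 CPM on ER ribosomes, against 160.6, 165.5 and 164.7 CPM in whole-cell RNA (-1.86, SE 0.06). Rrbp1, the ribosome receptor of sheet ER, was at 50.5 and 55.9 CPM on ER ribosomes, against 138.1, 137 and 139 CPM in whole-cell RNA (-1.37, SE 0.06). Both are coiled-coil proteins, of 1327 residues in Ktn1 and 1464 in Rrbp1, with an N-terminal membrane helix, and with Lama1 they were the lowest of the N-terminal only class at 20 CPM or more.

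Mitochondria gave opposite results for their own and the nuclear-encoded mRNAs. Mitochondrially encoded RNA, which mitochondrial ribosomes translate, made up 0.0222% and 0.0223% of gene counts on ER ribosomes, against 2%, 2.03% and 1.86% in whole-cell RNA, and all 11 mRNAs tested were lower. Nuclear-encoded subunits of the respiratory chain were 66 higher and 3 lower of 72 (median 0.54, length-matched 0.24). The cytochrome oxidase subunit Cox4i1 was at 1034 and 987.6 CPM on ER ribosomes, against 434.6, 455.8 and 426.1 CPM in whole-cell RNA (1.2, SE 0.04, adjusted p = 8.3e-29). Ndufb5, a membrane-arm subunit of complex I, was at 173.9 and 161.8 CPM on ER ribosomes, against 75.6, 78.2 and 73.1 CPM in whole-cell RNA (1.15, SE 0.05), and Ndufa1 (1.15), Ndufa13 (1.1), Ndufa3 (1.09), Ndufa4 (1.02) and Ndufb11 (1.01) were alike. These levels did not overlap between fractions.

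All 23 respiratory chain mRNAs whose protein has a segment were higher (median 0.59), and of 49 without one 43 were higher and 3 lower (median 0.47). The lower ones were soluble subunits: Sdha, the flavoprotein of complex II, at 166 and 171.9 CPM on ER ribosomes against 294.7, 306.1 and 281 CPM in whole-cell RNA (-0.8, SE 0.04), Ndufs1 (-0.49) and Atp5a1 (-0.14). Of 44 genes of mitochondrial import and carriers 26 were higher and 5 lower (median 0.18, length-matched 0.04). The import channel Tomm40, a beta barrel with no segment, was at 516.8 and 496.7 CPM on ER ribosomes, against 246.2, 240.2 and 251.8 CPM in whole-cell RNA (1.04, SE 0.04). Timm22 (0.91), the receptor Tomm20 (0.89) and Timm50 (0.86) were higher, and the carriers Slc25a37 (-0.74) and Slc25a36 (-0.6) lower.

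Cytosolic and nuclear machinery served as a contrast. Ribosomal proteins of the large subunit were 44 higher and 0 lower of 49 (median 0.43) and those of the small subunit 33 higher and 1 lower of 34 (median 0.44). They are short, with median lengths of 156 and 148.5 residues, and both length-matched medians were 0.14; many have processed pseudogenes that can share reads. Rpl31, the tagged protein, was at 958.1 and 892.8 CPM on ER ribosomes, against 727.5, 746.9 and 690.5 CPM in whole-cell RNA (0.36, SE 0.04), and its call was lost with 15 libraries in the fit. Proteasome subunits were 23 higher and 3 lower of 31 (median 0.22). Glycolytic enzymes were 5 higher and 5 lower of 19 (median -0.03, and 0.01 with 8 higher under library totals), and the chaperonin and cytosolic chaperones 11 and 11 of 30 (median 0.01, and -0.02 to -0.04 without ER replicate 2 or whole-cell replicate 2 or 3).

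Translation factors were 15 higher and 18 lower of 42 (median -0.04), with Eif3a, the scaffold of an initiation complex, at 197.9 and 209.4 CPM on ER ribosomes against 630.7, 645.6 and 667 CPM in whole-cell RNA (-1.67, SE 0.04). The tRNA synthetases and their scaffold proteins were 0 higher and 17 lower of 23 (median -0.26). Chromatin remodellers and DNA methylation enzymes were 2 higher and 44 lower of 46 (median -0.9, length-matched -0.21). Smarca4, the ATPase of the BAF complex, was at 72.6 and 79.4 CPM on ER ribosomes, against 269.3, 256.7 and 278 CPM in whole-cell RNA (-1.82, SE 0.05). The deacetylase Hdac1, of 482 residues, was at 133.2 and 139.4 CPM on ER ribosomes, against 278.4, 290.9 and 283.2 CPM in whole-cell RNA (-1.06, SE 0.04). Both were apart in every library. Mitosis genes were 6 higher and 29 lower of 44 (median -0.49), from Spc24 (0.32) to Knl1 (-2.96).

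Pluripotency factors, soluble nuclear proteins with few exceptions, were 13 higher and 9 lower of 28 (median 0.09). Tdgf1, a surface protein kept in that list, was the highest. Dppa5a had the highest ratio of the 26 with no segment. Its level was 2379 and 2276 CPM on ER ribosomes, against 1418, 1534 and 1408 CPM in whole-cell RNA (0.68, SE 0.04). Pou5f1 was at 1603 and 1540 CPM on ER ribosomes, against 1252, 1294 and 1265 CPM in whole-cell RNA (0.31, SE 0.03). Utf1 (0.4) and Sox2 (0.25) were also higher. Tfcp2l1 (-0.67) and Zfx (-0.94) were lower. Long noncoding RNAs, many of them known to stay in the nucleus, were 2 higher and 15 lower of 19 (median -0.98). Malat1 was at 26.3 and 33.3 CPM on ER ribosomes, against 226.5, 230.7 and 228.4 CPM in whole-cell RNA (-2.94, SE 0.06), and Neat1 had -1.69. They were still counted in every ER ribosome-bound library. The siRNA targets of the other groups, Nmd3 (-0.36, SE 0.05) and Gnl3 (-0.65, SE 0.04), were lower on ER ribosomes.

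The counting strand setting is not given in the sources used here, so reads of genes that overlap on opposite strands may not have been separated. Among the genes named above, annotated exons on the other strand overlap those of Acaa1a, Arf4, Atp1b1, Atp5a1, Birc6, Col4a1, Copa, Cox4i1, Ctsb, Ctsz, Egfl7, Galnt2, Gbf1, Gnl3, Hmgcs1, Hsp90b1, Idi1, Igf2, Krtcap2, Lss, Malat1, Man2a1, Mars, Ndufa13, Ndufa3, Ndufb11, Ndufb5, Ndufs1, Npc1, Nrm, Pex16, Pou5f1, Rpl31, Scap, Sec11a, Sec61a1, Sec62, Slc25a37, Spcs1, Srp9, Ssr2, Tmed1, Tmed5, Tomm40, Vcp, Wdr83os, Wrb and Zfx, and their values are uncertain to that extent.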

How the data were processed

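Poly(A)-selected RNA was sequenced from directional libraries, per the labels' protocols. STAR 2.7.9a, HTSeq 0.11.2, DESeq2 and the build GRCm39 are named in the submitters' processing notes. The authors deposited raw counts per gene, 1 file a library; 47.4% to 47.9% of counted fragments lay in no feature, and such lines were left out. The strand setting is not given in the sources used here.

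The counts were analysed with edgeR 4.0.16 (R 4.3.3): filterByExpr, TMM factors, a robust quasi-likelihood fit of the 5 libraries by fraction, and Benjamini-Hochberg adjustment over 17292 genes. SE was taken from the fold change and its F statistic (log2 fold change over root F). Whole-cell and ER ribosome-bound libraries of the same number come from the same lysate, per the labels, so they pair. The main fit left the pairing out, and a fit with the replicate number as a block is given below. The residuals of paired libraries correlated at -0.0011 and 0.003. Residuals of 2 ER libraries about their mean mirror each other, so these correlations cannot show that an effect of pairing is absent. On counts simulated for this comparison over 16943 genes, 71.7% of 99 genes changed by 0.75 and 93.9% of 99 changed by 1.5 (log2) were recovered, with 5 false calls. Few genes were changed there, up and down alike, whereas 57.0% of genes were called in the data. The simulation therefore does not measure error where so many genes differ. P-values measure the spread between these libraries only.

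Names, proteins and coding sequences came from GENCODE M21 (GRCm38), which matched 52135 of 55416 IDs. Since the builds differ, no coordinates are given. Named genes are the 12 highest and 12 lowest with libraries apart and a mean of 20 CPM or more, up to 4 called members at each end of a list and those called against its majority, all members of lists of 16 or fewer, the 3 at each end of a segment class, the most counted genes, markers, Rpl31, Nmd3 and Gnl3. A few others, such as Hspa5, Hdac1, Npc1, Pou5f1 and the uncalled genes, were named after their values were seen. Coding sequence is printed in place of protein, and tail-anchored examples were limited to the C-terminal class. The members and lists were chosen with earlier results of these data known. Listed names Tusc3, Ptprg, Vamp7 and Stx10 were not matched. Some listed genes are not reported here by name.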

Additional observations from a re-analysis of the deposited data

How the results depend on the processing

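Against 9859 calls (4818 higher on ER ribosomes, 5041 lower), a test against a 1.2-fold change (glmTreat) gave 6435 calls (2979 higher, 3456 lower). DESeq2 gave 8031, library totals without TMM factors 9958, TMM without mitochondrial genes 9883, no filter 9714, a stricter filter 9695 and 15 libraries in the fit 9197. Leaving out 1 library gave 8506 to 9835 calls, 4062 to 4792 of them higher. With the replicate number as a block, for libraries paired by lysate, 9338 genes were called, and 4427 of the 4818 higher and 4724 of the 5041 lower genes were among them. With library totals 52.6% of calls were higher, against 48.9% with TMM. No call changed sign in DESeq2 or with library totals. Of 477 named-gene results none reversed under any of these settings, and calls lost numbered 114 in the test against 1.2-fold, 44 without ER replicate 2, 31 in DESeq2, 28 without ER replicate 3, 23 with 15 libraries, 4 to 16 without a whole-cell library, 11 with library totals and 10 with the block. With library totals 1 nucleoporin and 1 tRNA synthetase were higher, against 0 of each with TMM. The difference in the share of counts from segment-bearing mRNAs, 1.85 points, was 3.13 with stricter windows, 2.07 without the 20 most counted genes and 1.69 to 1.94 without 1 library. List medians changed sign only for soluble cholesterol enzymes, cytosolic chaperones and glycolysis, all within 0.06 of 0. With 2 against 3 libraries no exact test of a single value can pass 0.05.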

Other observations

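The tRNA synthetases differed widely in ratio. The split that follows, by membership of the cytosolic multisynthetase complex, was chosen after the values had been seen and has no test. Of 11 genes of the complex 8 were lower on ER ribosomes and 0 higher, 5 of them by at least 2-fold (median -0.91). Of 12 synthetases outside it 9 were lower and 0 higher, 0 of them by at least 2-fold (median -0.22). The share called lower was thus alike in both groups, 8 of 11 and 9 of 12, and only the size of the ratio differed. Over all genes tested 29.2% were lower, and 7.62% were lower by at least 2-fold. Of segment-free mRNAs of 400 to under 800 residues 1400 of 3299 were lower (42.4%), 109 of them by at least 2-fold. After subtraction of the segment-free median of each gene's length class, the medians were -0.37 in the complex and -0.07 outside it, at median lengths of 660 and 576.5 residues.

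Eprs, which joins the glutamyl and prolyl enzymes in one chain, was at 180.2 and 181.7 CPM on ER ribosomes, against 609.7, 594.4 and 599.2 CPM in whole-cell RNA (-1.73, SE 0.04). The arginyl enzyme Rars was at 83.6 and 83.6 CPM on ER ribosomes, against 247.3, 272.4 and 260.2 CPM in whole-cell RNA (-1.64, SE 0.05). The complex's scaffold Aimp1, of 319 residues, was at 60.7 and 62.2 CPM on ER ribosomes, against 126.8, 127.2 and 131 CPM in whole-cell RNA (-1.06, SE 0.05). These libraries did not overlap between fractions. Kars (-0.07, SE 0.04), Aimp2 (-0.06, SE 0.06) and Eef1e1 (0.08, SE 0.05), which also belong to the complex, were not called. Outside it Vars, of 1263 residues, was lowest (-0.78, SE 0.04), and Gars, the glycyl enzyme, was at 423.5 and 409.7 CPM on ER ribosomes, against 498, 502.1 and 489.6 CPM in whole-cell RNA (-0.25, SE 0.04). Exons on the other strand overlap those of Mars, Aimp1 and Aimp2.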
